A study of Mus musculus with 9 samples.

Results

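Endothelial identity genes are the surface receptors, junction proteins and secreted proteins by which the cells lining blood vessels are commonly recognised. The 10 described here are Pecam1, Cdh5, Cldn5, Flt1, Kdr, Tek, Tie1, Ramp2, Emcn and Vwf, taken by gene name from a table of 54449 genes. All 10 had a mean normalized count of at least 5 over the 9 libraries and were among the 13642 genes tested. The libraries are labelled as lung eosinophils sorted from C57BL/6 mice whose age is not given in the sources used here. The naive libraries (n = 3) came from mice given saline only. The iEOS libraries (n = 3), labelled Siglec-F high, and the rEOS libraries (n = 3), labelled Siglec-F int, both came from animals whose lungs were seeded by PyMT tumour cells injected into a tail vein, a model that places tumour cells directly in the bloodstream. Each library pooled 3 to 4 mice, so that n counts pools, and both comparisons with naive share the same naive libraries.

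Against naive, Flt1 rose and Ramp2 fell in both tumour-bearing groups, while the other 8 genes did not pass the test in either comparison. Flt1, a receptor for vascular endothelial growth factor (VEGF), was 4.80-fold higher in iEOS and 3.76-fold higher in rEOS. Ramp2, which makes the calcitonin receptor-like receptor respond to adrenomedullin, was 2.03-fold lower in iEOS and 2.31-fold lower in rEOS. These folds come from the log2 differences described below and are not ratios of the group means. With 2 of 10 genes called in each comparison (20%), the share was below the 31.3% of all genes called between iEOS and naive (14.7% higher and 16.6% lower) and close to the 22.3% called between rEOS and naive (12% higher and 10.3% lower). Without iEOS library 1 and rEOS library 2, which stood apart as described below, Flt1 alone was called in iEOS, and Flt1 and Ramp2 were called in rEOS. Over 23 other settings, Flt1 was called in 21 in iEOS and in 13 in rEOS, and Ramp2 in 4 and in 10. With the trend of each library with GC content and transcript length removed, Ramp2 was called in neither, and its log2 difference in iEOS was 0.46. None of the 10 differed between iEOS and rEOS by limma's adjusted p, a comparison in which 0% of all genes were called. Of the 10 differences 6 were positive and 4 negative between iEOS and naive, and 2 were positive and 8 negative between rEOS and naive. The median log2 difference of the 10 was 0.20 between iEOS and naive and -0.48 between rEOS and naive, beside -0.11 and -0.02 over all genes tested.

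As background, endothelial cells hold together through VE-cadherin (Cdh5), claudin-5 (Cldn5) and PECAM-1 (Pecam1) at their contacts. VEGF acts on them through the receptor tyrosine kinases VEGFR2 (Kdr) and VEGFR1 (Flt1), the latter binding VEGF tightly but signalling weakly and also occurring in a soluble form that captures the ligand. Angiopoietins act through TIE2 (Tek), with the orphan receptor TIE1 (Tie1) as its partner, and angiopoietin-1 keeps vessels quiescent. Pecam1 is also found on platelets and leukocytes, Flt1 on monocytes, and Vwf in megakaryocytes, so that none of these is limited to endothelium. In the lung, capillaries are so dense that endothelial cells make up a large share of the organ's cells.

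The promoters of 4 of these genes are shown because they set the gene that rose, Flt1, beside its sister receptor Kdr, the angiopoietin receptor Tek and the junction gene Cldn5. Of the 10 genes, 6 were found in the RefSeq promoter table (GRCm38.p6). Many endothelial promoters carry sites for ETS transcription factors, whose core is GGAA or GGAT. Only a longer form of this core, AGGAAG, was searched, on both strands. On the opposite strand it reads CTTCCT. It was found in 29.5% of 32851 promoter windows of 250 bases. Each sequence below holds the 250 bases before the gene's RefSeq start, 5′ to 3′ on the gene's strand, with AGGAAG on either strand in capitals.
Flt1 (chr5:147726012-147726261, minus strand): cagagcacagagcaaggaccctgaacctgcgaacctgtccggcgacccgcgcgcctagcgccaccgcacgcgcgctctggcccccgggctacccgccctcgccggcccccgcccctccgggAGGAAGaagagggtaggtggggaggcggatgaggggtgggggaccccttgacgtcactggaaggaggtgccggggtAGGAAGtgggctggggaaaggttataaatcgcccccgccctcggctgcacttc
Kdr (chr5:75978456-75978705, minus strand): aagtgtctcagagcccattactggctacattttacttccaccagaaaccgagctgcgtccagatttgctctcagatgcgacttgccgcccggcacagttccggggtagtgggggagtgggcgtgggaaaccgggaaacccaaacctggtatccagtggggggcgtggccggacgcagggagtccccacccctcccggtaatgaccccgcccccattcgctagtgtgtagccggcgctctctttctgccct
Tek (chr4:94739039-94739288, plus strand): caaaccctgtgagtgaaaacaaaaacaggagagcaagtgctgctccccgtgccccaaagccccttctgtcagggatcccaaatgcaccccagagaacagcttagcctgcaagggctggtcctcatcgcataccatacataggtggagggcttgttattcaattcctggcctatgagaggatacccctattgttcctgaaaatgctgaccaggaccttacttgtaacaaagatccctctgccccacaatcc
Cldn5 (chr16:18776597-18776846, plus strand): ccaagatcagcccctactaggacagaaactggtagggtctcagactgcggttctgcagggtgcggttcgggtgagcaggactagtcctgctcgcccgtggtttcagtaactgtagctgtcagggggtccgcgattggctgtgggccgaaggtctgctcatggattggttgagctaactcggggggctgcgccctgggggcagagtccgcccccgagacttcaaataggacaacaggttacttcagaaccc
The RefSeq start of Kdr lies inside the gene as GENCODE M21 annotates it, so that the last bases of its window are within the GENCODE gene. The Flt1 window held 2 matches, the nearer one 47 bases before the start. No match was found in the windows of Kdr, Tek and Cldn5, which says only that these letters do not occur there. The shorter core GGAA, read on either strand, does occur in the windows of Kdr and Tek. Of the other members in the table, Emcn had 2 matches and Tie1 had 1. A match is a run of letters and no measure of binding.

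Values are deposited normalized counts, that is, reads per gene divided by a size factor of each library, and are given for libraries 1, 2 and 3 of a group in that order. Log2 differences (± SE) are on the log2(value + 1) scale, on which the change of a gene with low values comes out too small, and adjusted p-values are limma's with Benjamini-Hochberg adjustment over all genes tested at a threshold of 0.05. Libraries held from 2205949 reads (naive library 2) to 12495639 reads (rEOS library 3). Several of these libraries went against their label or stood apart. The eosinophil genes Siglecf, Ccr3 and Epx reached at most 31.3, 24.1 and 17.1 in any library, with Ccr3 at 0 in all naive libraries. Ear1 and Ear2, also listed as eosinophil genes, were higher, reaching 214 in iEOS library 3 and 568 in iEOS library 1. The 10 eosinophil genes listed summed to 268 to 742 in naive, 516 to 1154 in iEOS and 189.5 to 419 in rEOS. The libraries labelled naive carried much pigment cell RNA: 14 genes of melanin synthesis and melanocytes, such as Pmel and Dct, summed there to between 81295 and 86434, against 542 to 1603 in iEOS and 1070 to 1932 in rEOS. All 14 were lower in both comparisons. iEOS library 1 held few reads of GC-rich genes. The median centred log2 value was taken in genes at or above the upper GC quartile of all genes (54.5%). From it was subtracted that in genes at or below the lower GC quartile (44.9%). This difference was 1.103 to 1.47 in the naive libraries and -0.61 to 0.17 in the tumour-bearing libraries other than iEOS library 1. In iEOS library 1 it was -2.68. The same library had 31.1% of its reads in mitochondrial genes, against 11.5% to 21.2% in the other 8, and the part of this in the results was not tested. The directions below are those between libraries so labelled.

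Pecam1 encodes PECAM-1 (CD31), an adhesion molecule of endothelial contacts (chromosome 11, 106654217 to 106750628, minus strand, GRCm38). Its normalized counts were 233.96, 200.59 and 167.06 in naive, 172.2, 259.52 and 298.52 in iEOS and 204.53, 151.67 and 191.99 in rEOS. The 3 groups overlapped one another, and the SD within iEOS was larger than any difference between group means (201 ± 33.5, 243 ± 64.7 and 183 ± 27.6 as mean ± SD, n = 3 each). The log2 difference was 0.25 ± 0.32 between iEOS and naive (adjusted p = 0.561). Between rEOS and naive it was -0.13 ± 0.32 (adjusted p = 0.796), a value whose sign changed under other scalings of the libraries. The 95% interval of the first difference ran from -0.46 to 0.97, so that a change within that range remains possible.

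Cdh5 encodes VE-cadherin, the cadherin of endothelial adherens junctions (chromosome 8, 104101625 to 104144511, plus strand). It had 96.34, 78.15 and 112.76 normalized counts in naive, 121.74, 119.92 and 121.11 in iEOS and 68.18, 50.56 and 79.39 in rEOS. Every iEOS library was above every naive and every rEOS library, and the 3 iEOS values lay within 1.02-fold of one another, while naive and rEOS overlapped. Cdh5 was 0.89 ± 0.35 higher on the log2 scale in iEOS than in rEOS. Of the 10 genes it alone had an unadjusted p under 0.05 in that comparison, and it did not pass the test over all genes (adjusted p = 0.797). Neither group passed against naive, with log2 differences of 0.35 ± 0.35 in iEOS (adjusted p = 0.458) and -0.54 ± 0.35 in rEOS (adjusted p = 0.297).

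Cldn5 encodes claudin-5, the main claudin of endothelial tight junctions (chromosome 16, 18776847 to 18778262, plus strand). Its normalized counts were 119.27, 140.67 and 77.68 in naive, 2.19, 70.99 and 40.09 in iEOS and 45.63, 34.55 and 63.89 in rEOS. All 6 values from tumour-bearing mice were below all 3 naive values. The lowest, in iEOS library 1, rested on 2 reads, against 119 and 47 reads in the other two iEOS libraries. The log2 difference of -2.38 ± 0.95 between iEOS and naive did not pass the test (adjusted p = 0.0775), nor did that of -1.21 ± 0.95 between rEOS and naive (adjusted p = 0.384). Leaving out single libraries changed these values. Without iEOS library 1, the one with 2 reads, the iEOS difference was -1.02 and did not pass, and without iEOS library 2 it was -3.27 (adjusted p = 0.0205). The rEOS difference passed without iEOS library 1, which narrows the spread shared by all groups (adjusted p = 0.0376).

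**Figure D1:**
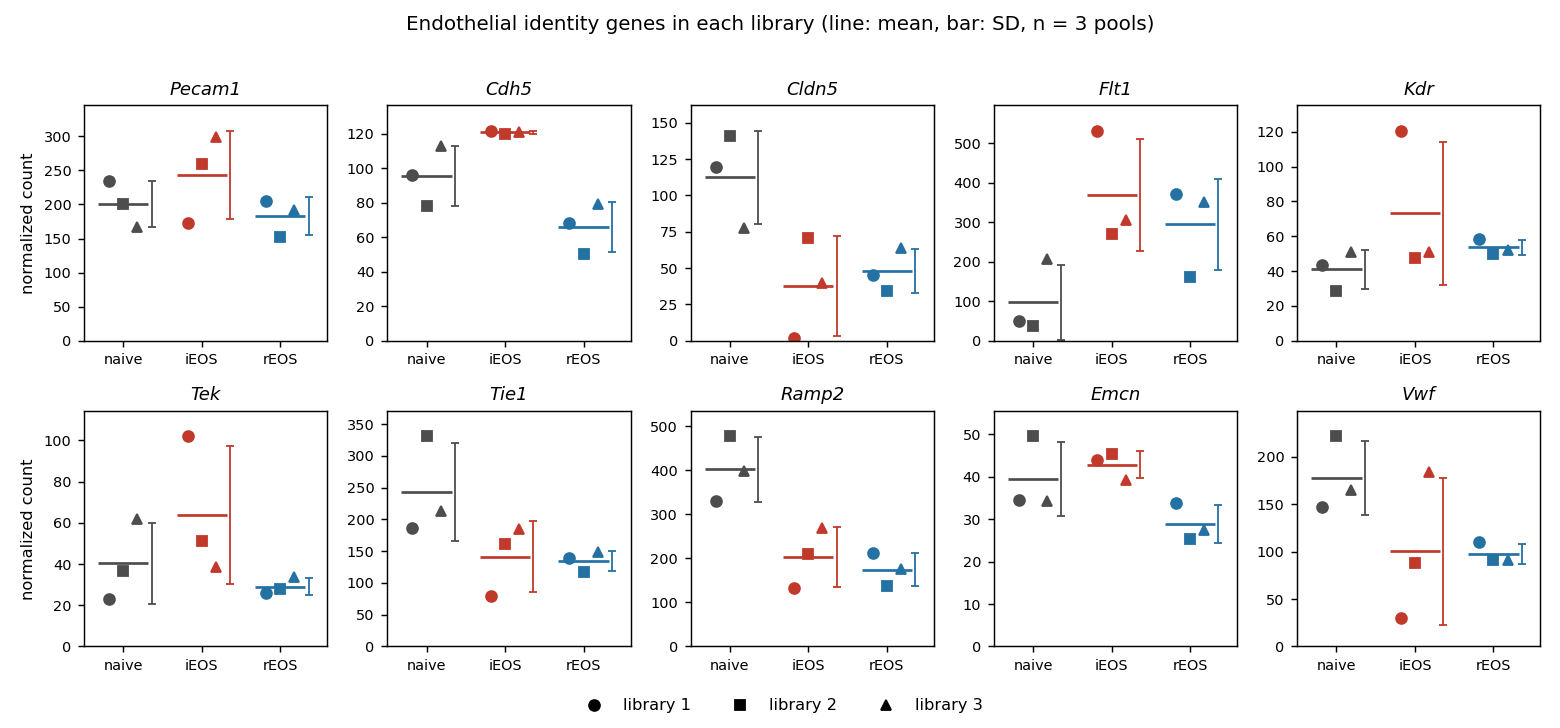
Normalized count (y axis, starting at 0, own scale per gene) of each of the 10 genes in every library of the naive, iEOS and rEOS groups (x axis). Points are libraries, with shapes for libraries 1, 2 and 3; lines are group means and bars SD over 3 pools. Cldn5, Tie1 and Ramp2 have all 6 tumour-bearing libraries below the naive libraries, while Flt1 is high in all 6 and in naive library 3.

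Flt1 encodes VEGFR1 (chromosome 5, 147561604 to 147726011, minus strand). It had 50.46, 36.47 and 207.15 normalized counts in naive, 531.94, 271.45 and 305.34 in iEOS and 371.47, 162.21 and 351.09 in rEOS. Naive libraries 1 and 2 were below all other libraries, and naive library 3 stood 5.68-fold above the lower of them. Naive libraries 1 and 2 held 44 and 14 reads of Flt1, against 248 in naive library 3. All iEOS libraries were above all naive libraries, whereas naive library 3 exceeded rEOS library 2. Flt1 was higher by 2.26 ± 0.61 on the log2 scale in iEOS (adjusted p = 0.0196) and by 1.91 ± 0.61 in rEOS (adjusted p = 0.0465). Group means were 98.0 ± 94.8, 370 ± 142 and 295 ± 115 (SD, n = 3 each), and iEOS and rEOS overlapped, with a log2 difference of 0.35 ± 0.61 (adjusted p = 0.884).

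The rise of Flt1 kept its direction in all 23 other settings in both comparisons. It was called in 21 of them in iEOS, where it was lost without naive library 1 (log2 difference 2.004, adjusted p = 0.0683) and without naive library 2 (1.78, adjusted p = 0.0712). In rEOS it was called in 13 of 23. There it was lost without naive library 1, naive library 2, iEOS library 3, rEOS library 1 or rEOS library 3, with adjusted p-values from 0.0641 to 0.152. By edgeR on the recovered reads, which called 26% of all genes in iEOS and 21.1% in rEOS, it was also lost in rEOS (1.72, adjusted p = 0.0737). Leaving out naive library 3 raised the log2 differences to 3.01 (adjusted p = 0.00500) and 2.66 (adjusted p = 0.00988).

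Kdr encodes VEGFR2, the receptor through which VEGF drives endothelial growth (chromosome 5, 75932827 to 75978458, minus strand). Its normalized counts were 43.58, 28.66 and 50.95 in naive, 120.65, 47.73 and 51.17 in iEOS and 58.51, 50.14 and 52.19 in rEOS. Only iEOS library 1 stood out, and the groups overlapped in every comparison. The log2 difference was 0.72 ± 0.48 in iEOS (adjusted p = 0.261) and 0.41 ± 0.48 in rEOS (adjusted p = 0.567). The lowest value, in naive library 2, rested on 11 reads, so that counting error alone was wide there.

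The log2 value of Flt1 minus that of Kdr within a library was 0.21, 0.34 and 2.002 in naive, 2.13, 2.48 and 2.55 in iEOS and 2.65, 1.67 and 2.73 in rEOS. Naive libraries 1 and 2 were apart from the rest, while naive library 3 was within the range of the tumour-bearing libraries. The difference between groups in this quantity was not tested. Over the 9 libraries, Kdr was the most like Flt1 of the other 9 members, by the mean absolute difference of centred log2 values, at 0.75, and ranked 1780th among all genes tested. The 5 most like it were Trim24 at 0.15, Tead1 at 0.19, Pcdh7 at 0.24, Gopc at 0.25 and Dnttip2 at 0.27.

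Tek encodes TIE2, the angiopoietin receptor (chromosome 4, 94739289 to 94874976, plus strand). It had 22.94, 36.47 and 61.81 normalized counts in naive, 102, 51.31 and 38.38 in iEOS and 25.77, 27.81 and 33.53 in rEOS. All iEOS libraries were above all rEOS libraries, and naive overlapped both. The log2 difference was 0.64 ± 0.54 between iEOS and naive (adjusted p = 0.375), -0.36 ± 0.54 between rEOS and naive (adjusted p = 0.659) and 1.00 ± 0.54 between iEOS and rEOS (adjusted p = 0.797).

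Tie1 encodes the partner receptor TIE1 (chromosome 4, 118471191 to 118490061, minus strand). Its normalized counts were 185.79, 330.84 and 213.83 in naive, 78.97, 161.08 and 184.23 in iEOS and 138.5, 116.7 and 148.03 in rEOS. All 6 libraries from tumour-bearing mice were below all naive libraries, the gap between the lowest naive and the highest iEOS value being small. The log2 differences of -0.82 ± 0.40 in iEOS (adjusted p = 0.130) and -0.81 ± 0.40 in rEOS (adjusted p = 0.163) did not pass the test. When iEOS library 1 was left out the iEOS difference was -0.45, and the rEOS difference passed (adjusted p = 0.0405). The value of Tie1 minus that of Tek within a library was 2.96, 3.15 and 1.77 in naive, -0.37, 1.63 and 2.23 in iEOS and 2.38, 2.03 and 2.11 in rEOS, on the log2 scale. The rEOS values were inside the naive range, and only iEOS library 1 was below 0. The difference between groups in this quantity was not tested.

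Ramp2 encodes an accessory protein of the adrenomedullin receptor, which guards vessel integrity (chromosome 11, 101246028 to 101259546, plus strand). It had 330.29, 476.72 and 398.43 normalized counts in naive, 132.71, 210 and 268.66 in iEOS and 212.58, 136.08 and 174.91 in rEOS. Every naive library was above every tumour-bearing library, with group means of 402 ± 73.3, 204 ± 68.2 and 175 ± 38.3 (SD, n = 3 each). Ramp2 fell by 1.02 ± 0.35 on the log2 scale in iEOS (adjusted p = 0.0468). In rEOS it fell by 1.21 ± 0.35 (adjusted p = 0.0315). One annotated Ramp2 transcript runs over exons of Vps25 on the same strand, and how shared reads were counted is not given in the sources used here, which leaves the Ramp2 count uncertain. Vps25 itself was between 0 and 5.01 in all libraries.

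The fall of Ramp2 was close to the threshold. Of 23 other settings it was called in 4 in iEOS and in 10 in rEOS. Among the fits that left out 1 library, the iEOS call held only without iEOS library 3 (-1.25, adjusted p = 0.0427). The rEOS call held without any 1 of the iEOS libraries and was lost without any 1 naive or rEOS library (adjusted p from 0.0525 to 0.0958). With the trend of each library with GC content and transcript length removed, the iEOS difference changed sign to 0.46 (adjusted p = 0.391) and the rEOS difference was -0.20 (adjusted p = 0.772). The 5 genes most like Ramp2 over the 9 libraries were Map1lc3b and Snu13, at mean absolute differences of 0.15 and 0.16, and Cars, Cadm1 and Wdr34, each at 0.16. Tie1 ranked 16th at 0.19 and Vwf 315th at 0.31.

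Emcn encodes endomucin, a sialomucin of capillary and venous endothelium (chromosome 3, 137341067 to 137432185, plus strand). Its normalized counts were 34.41, 49.5 and 34.25 in naive, 43.87, 45.34 and 39.23 in iEOS and 33.82, 25.28 and 27.52 in rEOS. All rEOS libraries were below all naive and all iEOS libraries, though naive library 3 and rEOS library 1 almost met. The log2 differences were 0.14 ± 0.44 in iEOS (adjusted p = 0.830), -0.42 ± 0.44 in rEOS (adjusted p = 0.515) and 0.56 ± 0.44 between iEOS and rEOS (adjusted p = 0.797).

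Vwf encodes von Willebrand factor, the adhesive protein that endothelial cells store in Weibel-Palade bodies and that tethers platelets (chromosome 6, 125546774 to 125686679, plus strand). It had 146.8, 221.43 and 165.38 normalized counts in naive, 29.61, 88.3 and 183.37 in iEOS and 110.05, 91.43 and 91.41 in rEOS. The iEOS libraries spread over 6.19-fold, library 3 lying among the naive values, while all rEOS libraries were below all naive libraries. The log2 difference was -1.15 ± 0.56 in iEOS (adjusted p = 0.137) and -0.84 ± 0.56 in rEOS (adjusted p = 0.305). Without iEOS library 1 the iEOS difference was -0.46 and did not pass, and without iEOS library 3 it was -1.75 and passed (adjusted p = 0.0359).

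**Figure D2:**
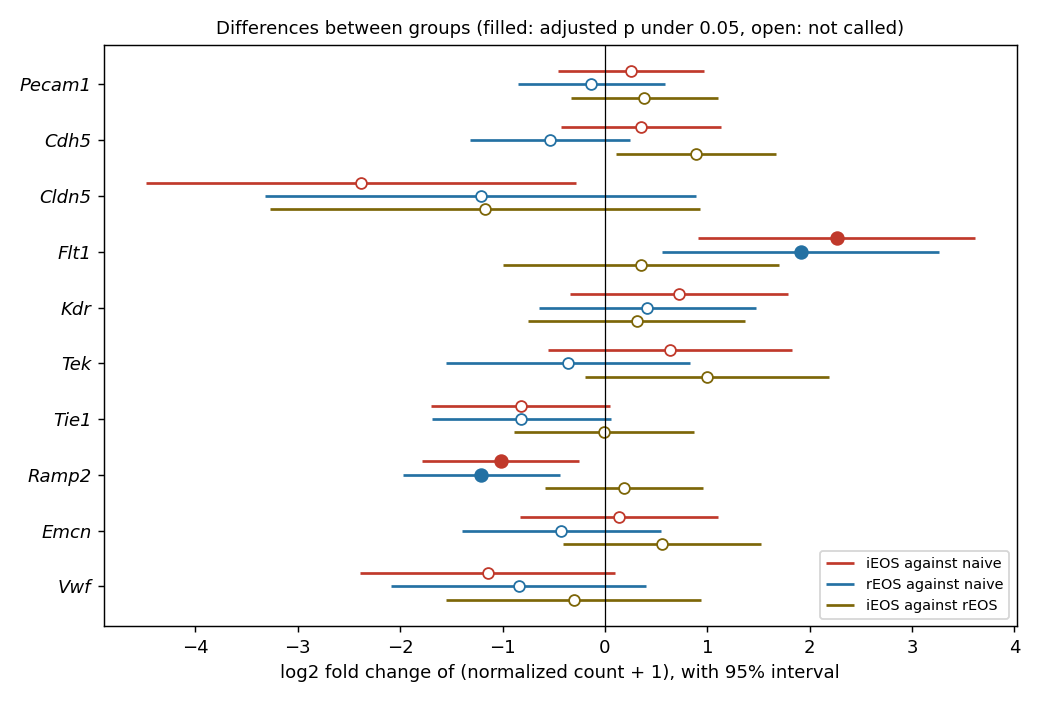
Log2 difference (x axis) of each of the 10 genes (y axis) for iEOS against naive, rEOS against naive and iEOS against rEOS. Lines are 95% intervals from limma, filled points have an adjusted p under 0.05 and open points do not. Filled points appear only for Flt1, at 2.26 and 1.91, and for Ramp2, at -1.02 and -1.21.

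By overlap of the groups, 5 genes separated iEOS from naive: Cdh5 and Flt1 were higher and Tie1, Cldn5 and Ramp2 lower in every library. The same separation was seen for 46.4% of all genes tested, 20.2% higher and 26.3% lower. From naive, rEOS was separated by 5 lower genes (Tie1, Cldn5, Ramp2, Emcn and Vwf) and by none that was higher, beside 50.9% of all genes, 23.3% higher and 27.6% lower. Cdh5, Tek and Emcn separated iEOS from rEOS, all higher in iEOS, where 11.3% of all genes separated, 5.52% higher and 5.75% lower. Of the 13642 genes, 591 had an unadjusted p under 0.05 between iEOS and rEOS, and 0 passed by limma or by edgeR, whereas DESeq2 called 6, none of them among the 10.

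Together the 10 genes took a small share of all reads, and the groups overlapped in it. The share was 0.0247%, 0.0278% and 0.0322% in naive, 0.0246%, 0.0310% and 0.0348% in iEOS and 0.0314%, 0.0174% and 0.0307% in rEOS. Group means were 0.0283% ± 0.0038, 0.0302% ± 0.0052 and 0.0265% ± 0.0079 (SD, n = 3 each). As summed normalized counts the 10 genes ran from 1264 to 1600 in naive, 1326 to 1530 in iEOS and 846 to 1269 in rEOS, so that on this scale all iEOS libraries were above all rEOS libraries. Neither measure was tested. rEOS library 2 was the lowest, with a 95% Wilson interval of 0.0166% to 0.0181%, below the intervals of the other 8 libraries. That library also had the highest value of the pan-leukocyte gene Cd53, 10427, against at most 7255 in any other library. Whether this bears on the share was not tested. Fewer cells of a type and less RNA per cell cannot be told apart in such bulk samples.

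**Figure D3:**
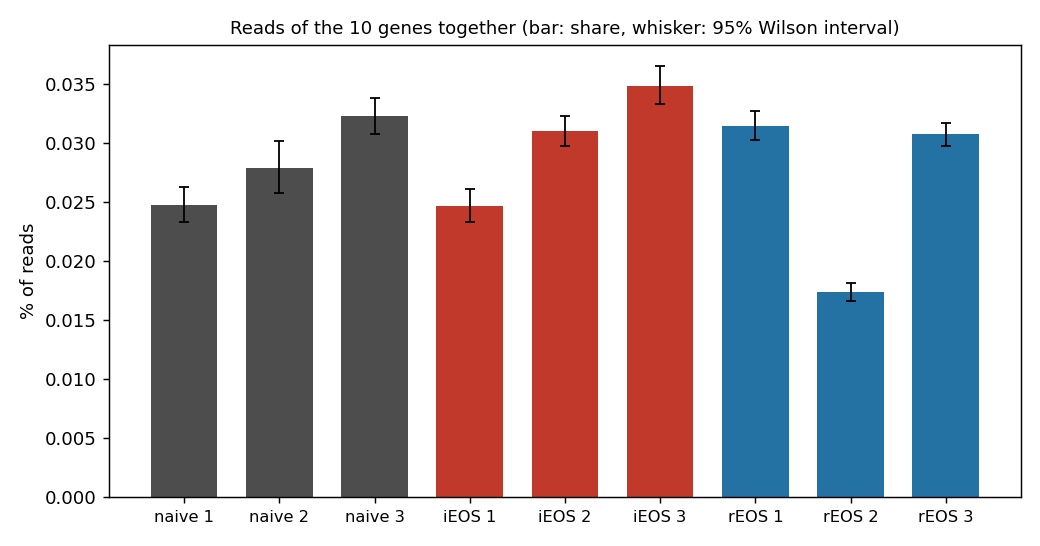
Share of all reads held by the 10 genes together (y axis, percent, starting at 0) in each of the 9 libraries (x axis). Bars are the shares and whiskers their 95% Wilson intervals, which cover counting error only. rEOS library 2, at 0.0174%, lies below all other libraries, which run from 0.0246% to 0.0348%.

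A property that the choice of genes did not use, GC content, went with the direction of the differences in iEOS, and only in part in rEOS. A GC trend also ran through all genes tested. The difference between the GC quartiles described above was 1.103 to 1.47 in naive and -2.68 to 0.17 in the tumour-bearing libraries. How many of all GC-rich genes had negative differences was not counted, so the split below describes these genes only. Cldn5, Ramp2, Tie1 and Vwf, whose transcripts have 60.5%, 60.1%, 57.6% and 56.5% GC, all had negative differences in both comparisons with naive. Their median log2 difference was -1.08 in iEOS and -1.02 in rEOS. The other 6, with 41.5% to 52.2% GC, all had positive differences in iEOS, with a median of 0.49, and 2 of them had positive differences in rEOS, with a median of -0.25. Within iEOS, library 1 was the lowest for each of the 4 GC-rich genes and the highest for Flt1, Kdr, Tek and, by a small margin, Cdh5. It was also the lowest for Pecam1 (50.2% GC) and was not the highest for Emcn, the gene with the least GC. With the GC and length trend removed, Flt1 passed in iEOS (1.83, adjusted p = 0.0307) and was just outside the threshold in rEOS (1.59, adjusted p = 0.0593), Tie1 was at 0.03 in iEOS, and Emcn moved to -0.86 there. The part of GC content in the differences was otherwise not tested.

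**Figure D4:**
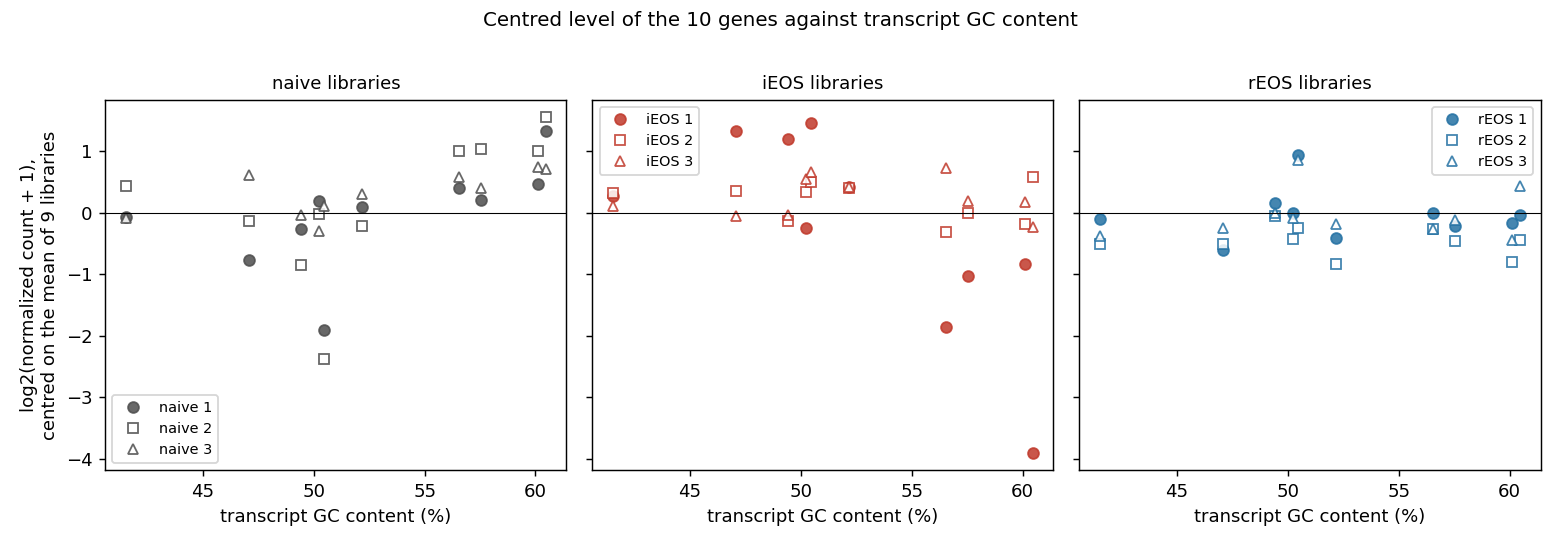
Log2(normalized count + 1) of each gene, centred on its mean over the 9 libraries (y axis), against the GC content of its transcript (x axis, percent), in panels for the naive, iEOS and rEOS libraries. Points are genes, with shapes for libraries 1, 2 and 3. The 4 genes from 56.5% GC upward lie above 0 in all naive libraries and below 0 in iEOS library 1, and Flt1, at 50.5% GC, is the lowest point in naive libraries 1 and 2.

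The ligands of the VEGF receptors changed unevenly. Of 8 VEGF ligands and co-receptors tested, 2 rose and 1 fell in iEOS, and 1 rose and 1 fell in rEOS. The gene that rose in rEOS was not a ligand but the co-receptor Nrp1 (1.64 ± 0.49, adjusted p = 0.0346). It was called in 3 of the 9 fits that left out 1 library. Of all genes tested, 31.3% were called between iEOS and naive and 22.3% between rEOS and naive, shares that also stand beside the lists below. Vegfa, the principal ligand of Kdr and Flt1, went from 442 ± 76.1 in naive to 927 ± 297 in iEOS (SD, n = 3; log2 difference 1.03 ± 0.30, adjusted p = 0.0270). It was at 768 ± 102 in rEOS, where it did not pass (0.80 ± 0.30, adjusted p = 0.0811). The iEOS call of Vegfa was lost without any 1 of the naive libraries (highest adjusted p = 0.0779). Vegfb, a ligand of Flt1 but not of Kdr, fell by 4.09 ± 0.77 in iEOS (adjusted p = 0.00426) and by 2.47 ± 0.77 in rEOS (adjusted p = 0.0431), and of the fits that left out 1 library the rEOS call held only without iEOS library 1 or iEOS library 2. Its transcript has 62.6% GC, and with the GC and length trend removed it was still called, at -2.48 in iEOS and -1.46 in rEOS. The rEOS call was lost under equal totals, TMM factors and a pseudocount of 0.5. Vegfc, the lymphatic growth factor, rose in iEOS by 1.79 ± 0.52 (adjusted p = 0.0265), a call lost without naive library 1, naive library 2 or iEOS library 1 and with the GC trend removed.

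Among 6 tested angiopoietin ligands and TIE partners, 2 rose in iEOS and 1 in rEOS. Angpt1, the activating ligand of TIE2, was at 8.03, 0 and 8.35 in naive, 136, 52.5 and 64.82 in iEOS and 38.11, 18.12 and 65.16 in rEOS, and the groups from tumour-bearing mice were above naive in every library. Its rise of 4.16 ± 0.90 in iEOS (adjusted p = 0.00810) was called in all 9 fits that left out 1 library. The rise of 3.06 ± 0.90 in rEOS (adjusted p = 0.0342) was called in 5 of those 9 and lost without naive library 2, iEOS library 3, rEOS library 1 or rEOS library 3. Removing the GC and length trend also lost this rEOS call. Ptprb, the phosphatase VE-PTP that restrains TIE2 and VE-cadherin, rose in iEOS by 1.36 ± 0.46 (adjusted p = 0.0468), a call that held only without iEOS library 2 or rEOS library 2 among the fits that left out 1 library. The call of Ptprb was also lost with the GC and length trend removed.

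In the adrenomedullin system, with 7 genes tested, 2 rose in iEOS and 1 fell in rEOS. Calcrl, the calcitonin receptor-like receptor that Ramp2 carries to the surface, was at 63.08, 75.55 and 55.13 in naive, 401.42, 260.71 and 198.73 in iEOS and 165.88, 126.82 and 112.6 in rEOS. All tumour-bearing libraries were above all naive libraries. It rose by 2.09 ± 0.37 in iEOS (adjusted p = 0.00292) and was 1.05 ± 0.37 higher in rEOS without passing (adjusted p = 0.0624). Its direction in iEOS is opposite to that of Ramp2 in the values as deposited. With the GC and length trend removed it is not: the iEOS difference of Calcrl, whose transcript has 37.8% GC, was then 0.43, that of Ramp2 was 0.46, and neither was called. Ackr3, a decoy receptor that takes up adrenomedullin, rose in iEOS by 1.71 ± 0.49 (adjusted p = 0.0245), a call lost without naive library 1 or naive library 2. Adm, the ligand, fell in rEOS by 1.40 ± 0.38 (adjusted p = 0.0240). That call was lost without any 1 naive library, rEOS library 2 or rEOS library 3, under equal totals and with the GC and length trend removed.

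Other endothelial genes were also called in both directions, as were all genes tested. Of those, 14.7% were higher and 16.6% lower in iEOS, and 12% higher and 10.3% lower in rEOS. Of 20 transcription factors of endothelial cells, 3 rose and 1 fell in iEOS and 5 rose and 1 fell in rEOS. Foxc2, a factor of lymphatic valves and mesenchyme, had 2.29, 2.61 and 0.84 in naive and between 34.1 and 174 in all other libraries. With 4 reads in all of naive, its fitted rises of 5.55 ± 0.61 in iEOS (adjusted p = 0.000348) and 4.77 ± 0.61 in rEOS (adjusted p = 0.000910) depend on the pseudocount. Klf4, a flow-responsive factor also used by many other cells, rose by 2.20 ± 0.37 and 2.16 ± 0.37 (adjusted p = 0.00231 and 0.00309). Nr2f2, the venous factor COUP-TFII, rose by 2.08 ± 0.32 in iEOS (adjusted p = 0.00171) and by 1.22 ± 0.32 in rEOS (adjusted p = 0.0226). The latter call was lost without naive library 1, naive library 3, rEOS library 1 or rEOS library 3 and with the GC and length trend removed. Ets1, the one that fell, was lower by 1.09 ± 0.33 in iEOS (adjusted p = 0.0317), a call lost under equal totals and TMM scaling and without naive library 1, naive library 3, iEOS library 2, iEOS library 3 or rEOS library 1. In rEOS it fell by 1.60 ± 0.33 (adjusted p = 0.00780).

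Of 43 further surface and junction genes, 3 rose and 6 fell in iEOS and 4 rose and 5 fell in rEOS. These counts, and the others in this paragraph, stand beside 31.3% of all genes called in iEOS and 22.3% in rEOS. Vcam1, the leukocyte adhesion molecule of activated endothelium and of stroma, rose by 3.95 ± 0.40 in iEOS and 3.29 ± 0.40 in rEOS (adjusted p = 0.000281 and 0.000748). Tjp1, the scaffold protein ZO-1 to which claudins bind, rose by 3.09 ± 0.48 and 2.13 ± 0.48 (adjusted p = 0.00172 and 0.0112), the rEOS call being lost without rEOS library 1 or rEOS library 3. Endoglin (Eng), a co-receptor for TGF-beta family ligands, fell by 2.65 ± 0.46 and 2.41 ± 0.46 (adjusted p = 0.00279 and 0.00531). Mcam, also known as a melanoma adhesion molecule, fell by 1.45 ± 0.27 and 1.99 ± 0.27 (adjusted p = 0.00373 and 0.00110). It averaged 817 ± 69.5 in naive, 299 ± 20.2 in iEOS and 207 ± 35.6 in rEOS, and with the GC and length trend removed the iEOS difference was -0.71 and not called. Of 15 lung capillary and vessel-zone genes, 6 rose and 2 fell in iEOS and 4 rose and 1 fell in rEOS, Kitl, the KIT ligand, rising in both (adjusted p = 0.00117 and 0.00505). The lists share genes, so their counts are not separate. Vcam1 is counted in this list and the one before, and Plat, which also rose in both comparisons, in this list and the next. Of 8 genes of von Willebrand factor partners and Weibel-Palade bodies, 2 rose and 2 fell in each comparison. The granule protein Cd63 and the small GTPase Rab27a were the ones that fell, and both are also proteins of melanosomes. The iEOS fall of Cd63 was lost without naive library 2 or naive library 3, and its rEOS fall held only without 1 of the iEOS libraries among the fits that left out 1 library. Both falls of Cd63 were also lost under equal totals and with the GC and length trend removed. Of all the genes of these lists called against naive, none changed sign in any other setting tried.

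Markers of other cell types were read in the same fit, beside the 31.3% of all genes called between iEOS and naive and the 22.3% between rEOS and naive. Of 8 platelet and megakaryocyte markers tested, 3 rose in iEOS and 2 in rEOS, the platelet chemokine Pf4 averaging 259 ± 23.2 in naive, 856 ± 360 in iEOS and 900 ± 321 in rEOS. The 14 markers of that list summed to 446 to 685 in naive, 871 to 2103 in iEOS and 1090 to 1621 in rEOS. Pf4 and Ppbp made up most of the sum in iEOS library 1, at 1235 and 705, and the median log2 difference of the 8 tested was -0.02 in iEOS and 0.48 in rEOS. Of 13 pan-leukocyte and myeloid markers, 6 rose and 0 fell in each comparison, their sum running from 10125 to 15294 in naive, 19188 to 26778 in iEOS and 19712 to 66356 in rEOS. Of 16 fibroblast, pericyte and smooth muscle markers tested, 6 rose in iEOS and 4 in rEOS, Dcn by 4.63 ± 0.49 and 3.78 ± 0.49 (adjusted p = 0.000308 and 0.000943). All 17 genes of that list summed to 7255 to 8947 in naive, 25432 to 36449 in iEOS and 10966 to 26495 in rEOS. Of 14 lung epithelial markers, 1 rose and 2 fell in iEOS and 1 rose and 1 fell in rEOS. Of 6 red cell markers and of 6 eosinophil markers tested, 0 passed in either comparison by limma, and of 4 lymphatic markers 1, Pdpn, rose in both. The part of each of these cell types in the values of the 10 genes was not tested.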

How the data were processed

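RNA from 9 libraries, 3 per group, was sequenced. Per the labels' protocols, cells were sorted to more than 98% purity from mice injected with 200 µl of saline or of tumour cells in saline, and RNA with an integrity number above 6.3 was used. Per the submitters' processing notes, TopHat2 2.1.0, HTSeq, DESeq2 1.10.0 and the genome build GRCm38 were used. The signal deposited for a gene is its count scaled by a factor of the library, per the values: all are multiples of what 1 read is worth for 100% of values up to 2000 reads (within 0.05 read), which gave the reads per library. Whether molecular identifiers were counted is not given in the sources used here, so intervals cover counting error only. No column of values was left unused (0 columns). Of 54670 entries, 63 named as dates (0.219% of the total), 116 exact duplicates and 42 repeats of name and values were removed. A further 215 shared a name. Positions, length and GC content came from GENCODE M21, in which 99.9% of the genes were found, and GC content from the longest protein-coding transcript.

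Genes with a mean of at least 5 were tested with limma 3.58.1 (R 4.3.3) on the log2 of the value plus 1. All 9 libraries entered 1 model whose prior variance followed the mean, with two-sided tests and Benjamini-Hochberg adjustment at 0.05. The p-values measure the spread between pools. Other settings included count tests on these reads (edgeR 4.0.16, DESeq2 1.42.0), other scalings, filters and pseudocounts, the replicate number as a block and each library left out; removal of the GC and length trend (span 0.3) was chosen after seeing the data. On simulated data with 200 changed genes in 3 runs of iEOS against naive (13632 genes), 29.7% of changes of 4-fold and 85.3% of those of 16-fold were recovered, and 3.35% of its calls were false. The simulation had far fewer changed genes than were called in the data and no GC trend, so these rates cannot be carried over to the data. The 10 genes and the other gene lists were chosen with earlier results of these data known. All 10 are named. From each other list, up to 3 called genes per direction with the smallest adjusted p were candidates for naming, and otherwise the tested genes with the highest mean, and for Flt1 and Ramp2, the members with the highest mean, the 5 genes most like each. Wilson intervals came from scipy 1.17.1, and figures from matplotlib 3.10.9.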

Additional observations from a re-analysis of the deposited data

How the results depend on the processing

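The number of the 10 genes called against naive, 2 in each comparison, depended on the setting. In iEOS it was 1 without the filter, under equal totals, TMM factors or quantile normalization, without the variance trend, in a fit of only the groups compared, by edgeR or DESeq2, without iEOS library 1 and rEOS library 2, or with the GC and length trend removed. In rEOS it was 1 under equal totals, TMM factors or quantile normalization, 3 in a fit of only the groups compared (where Cldn5 and Vwf passed and Flt1 did not), and 0 without the filter, without the variance trend, by edgeR, or with the GC and length trend removed. Leaving out each library in turn gave 0 to 3 in iEOS and 0 to 4 in rEOS. The number of all genes called, 4266 and 3036, was 2770 to 5101 and 1401 to 5167 with each library left out; it was 2509 and 4808 in a fit of only the groups compared and 4623 in rEOS without iEOS library 1 and rEOS library 2. By edgeR it was 3550 and 2875, and between iEOS and rEOS it was 0 by limma and edgeR and 6 by DESeq2. Of the called genes, 46.9% were higher in iEOS and 53.8% in rEOS, against 57.0% and 69.1% under equal totals, which moved the median of all genes from -0.11 to 0.02 and from -0.02 to 0.23.

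Replicate numbers are shared between groups, but the labels give no shared mice for equal numbers, so the numbers were not taken as pairs. Same-numbered libraries deviated together by correlations of -0.03 to 0.14. Between iEOS and rEOS the correlations were 0.12, 0.14 and 0.07 for equal numbers and -0.16 to -0.01 for unequal numbers. Whether same-numbered iEOS and rEOS libraries share mice was not tested. With the replicate number as a block, 1 of the 10 genes was called in iEOS (Ramp2 had an adjusted p of 0.0577) and 2 in rEOS, and 4317 and 3091 genes in all. Between iEOS and rEOS the fit with this block called 0 genes.

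Some differences changed sign, and not only those near 0. Ramp2 (-1.02, called) and Tie1 (-0.82) between iEOS and naive were among them, as was Cldn5 (-1.17) between iEOS and rEOS. Against naive, Pecam1 in rEOS was 0.13 under equal totals, 0.071 under TMM, 0.070 by edgeR and 0.015 with the GC trend removed, which also turned Tie1 (0.026), Emcn (-0.86) and Ramp2 (0.46) in iEOS. Between iEOS and rEOS, Tie1 turned to 0.043 under quantile normalization, 0.049 by edgeR, 0.093 by DESeq2 and 0.44 with the GC trend removed, and Vwf to 0.022 by edgeR and 0.057 by DESeq2. Without iEOS library 1 and rEOS library 2, Kdr was -0.16, Flt1 -0.33, Tie1 0.27 and Vwf 0.34. With 1 library left out, Kdr ranged from -0.11 to 0.55, Flt1 from -0.032 to 0.56, Tie1 from -0.24 to 0.36, Cldn5 from -2.05 to 0.19, Vwf from -0.91 to 0.39 and Ramp2 from -0.040 to 0.47. The cause was not tested. Without mitochondrial genes in the total, the shares of reads were 0.0310%, 0.0353% and 0.0364% in naive, 0.0358%, 0.0360% and 0.0434% in iEOS and 0.0384%, 0.0203% and 0.0365% in rEOS.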
